A study of Mus musculus with 5 samples.

Results

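The 10 genes described here are markers of astrocytes, the glial cells that take up transmitter, buffer water and ions and feed neurons in the brain. Gfap, Aqp4, S100b, Slc1a3, Gja1, Gjb6, Aldoc, Aldh1l1, Sox9 and Fabp7 were listed by name, and each had exactly 1 probe set that carried a single gene symbol. All 10 listed genes were therefore measured, of 22059 genes in the table. By the study's text, RNA came from primary cortical astrocytes of newborn FVB mice. These mice were heterozygous for a wild-type LRRK2 transgene (LRRK2-WT, 2 arrays) or for its G2019S form (LRRK2-GS, 3 arrays). Both groups thus carried a LRRK2 transgene beside the mouse's own Lrrk2, and the sources used here do not give the promoter that drives it. By the study's methods, every culture had received 0.2 μg/ml tunicamycin, a blocker of N-linked glycosylation that stresses the endoplasmic reticulum. A figure legend of the study gives a lower dose for its microarrays. The labels give a treatment of 3 h and the study's text a longer one. No untreated array was analysed here, so the values describe treated samples only. Astrocyte identity in such cultures rests on markers of this kind, with Gfap, the intermediate filament protein of the astrocyte skeleton, as the usual stain. The study's text reports high astrocyte purity from cell type markers on its microarrays. Its methods also report it from immunofluorescence for the GFAP protein in the cultures. On these arrays, however, 27 measured hepatocyte markers had a median log2 value of 10.79, beside 3.88 for the 10 astrocyte markers. Where the hepatocyte transcripts came from was not tested. The question was how strongly the markers were measured and whether their levels differed between the genotypes.

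Astrocyte markers have separate jobs in the cell. Slc1a3 is a glutamate transporter, Aqp4 is the water channel of the endfeet that line blood vessels, and Gja1 and Gjb6 encode the connexins that couple astrocytes through gap junctions. Aldoc is the brain form of the glycolytic enzyme aldolase, Aldh1l1 oxidises a folate carrying a one-carbon unit in the cytosol, S100b binds calcium, Fabp7 carries fatty acids in radial glia and astrocytes, and Sox9 is a transcription factor of the glial lineage. Some are not exclusive to the brain. Aldh1l1 is also abundant in liver, and Sox9 also marks bile duct cells.

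The values are the authors' log2 expression values, 1 per probe set and array. Probe sets differ in sensitivity, so a level was read against 2 yardsticks and not as an amount of RNA. The first was the group of 1090 probe sets for olfactory receptors (Olfr genes), which are known mainly from the nose and served as background here. Their 95th percentile lay at 3.35. The second was the whole set of 23396 tested probe sets, with a median of 3.59 and a 90th percentile of 6.42, above which a gene is called bright here. Median values of the 5 arrays lay between 3.57 and 3.59, and Pearson's r across probe sets was 0.986 to 0.994 between arrays. The groups differed in genes of the sex chromosomes, with Xist at 8.29 for LRRK2-WT and 2.57 for LRRK2-GS, and the Y-linked Eif2s3y at 2.17 and 6.41. Every array followed its group in both genes. A difference between the genotypes therefore cannot be told apart from a difference between the sexes in these data. Lrrk2 itself averaged 3.45 and 3.41, and the sources used here do not say whether its probe set reads the transgene. No label tells whether each array had a culture of its own, so the p-values reflect the scatter of these 5 arrays alone, which may be technical.

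Of the 10 markers, 6 lay above the olfactory receptor background and 4 lay below it, and only Aldh1l1 was bright. The same 6 genes were above that array's own background on each of the 5 arrays, and the other 4 on none. Of all tested probe sets, 55.0% passed the same level, so the count of 6 is near what the whole table gives. The median of the 10 markers was 3.88, beside 3.59 for all tested probe sets. In bulk RNA a low value can come from fewer cells of a type or from less RNA per cell, and these cannot be told apart.

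**Figure D1:**
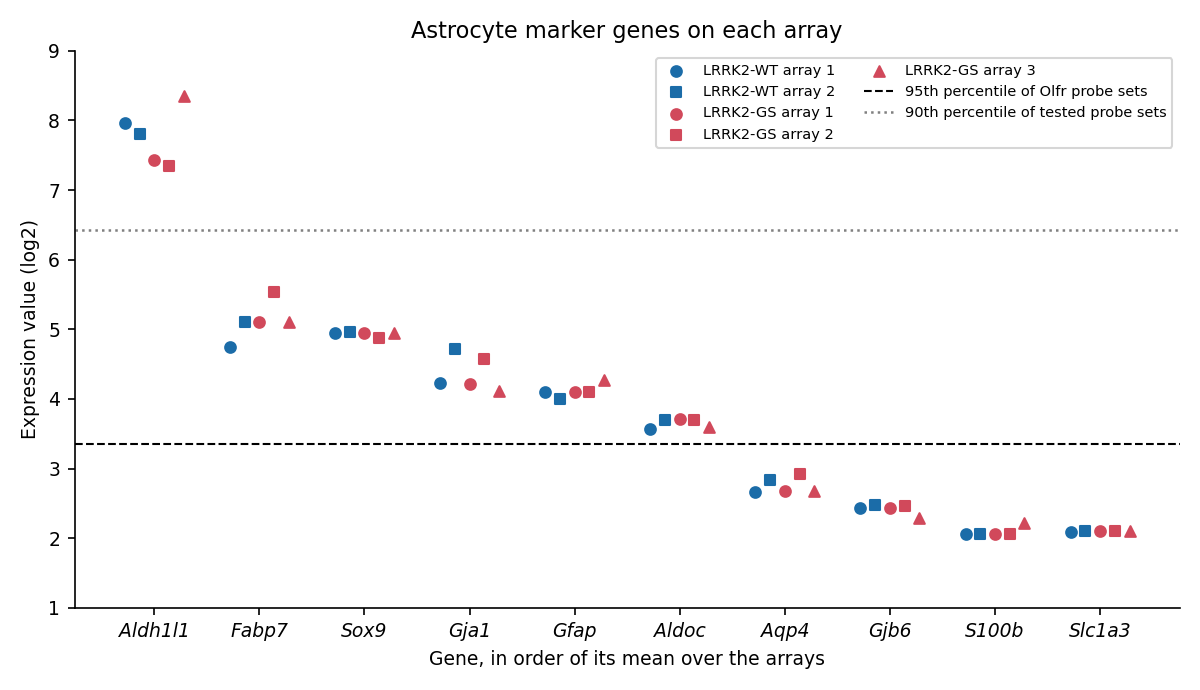
Deposited log2 value (y axis) of each of the 10 marker genes (x axis) on the 2 LRRK2-WT and 3 LRRK2-GS arrays, 1 point per array. Points of Aldh1l1 lie above the dotted 90th percentile of tested probe sets (6.42), and those of Aqp4, Gjb6, S100b and Slc1a3 all lie under the dashed 95th percentile of Olfr probe sets (3.35).

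Aldh1l1 (probe set 17460831, chromosome 6) was the only bright marker. It read 7.97 and 7.80 on the LRRK2-WT arrays and 7.43, 7.35 and 8.35 on the LRRK2-GS arrays. Its mean of 7.78 lay at percentile 96.8 of tested probe sets, and 0 of the 1090 Olfr probe sets lay higher. LRRK2-GS arrays held both its highest and its lowest values, so the groups overlapped. Its SD over the 5 arrays was 0.41, larger than that of 96.8% of tested probe sets. The pair of arrays with the lowest Aldh1l1, LRRK2-GS 1 and 2, also had the lowest mean over 27 hepatocyte markers, at 10.47 and 10.48 beside 10.64 to 10.69 on the other arrays. Its part in the Aldh1l1 values was not tested.

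Fabp7 and Sox9 lay in the upper part of the distribution but were not bright. Fabp7 (chromosome 10) read 4.75 and 5.10 in LRRK2-WT and 5.10, 5.53 and 5.10 in LRRK2-GS, with a mean of 5.12 at percentile 75.4. LRRK2-WT array 1 was the lowest and LRRK2-GS array 2 the highest, while the remaining arrays shared a single value. Sox9 (chromosome 11) was the steadier of the pair, at 4.94 and 4.96 in LRRK2-WT and 4.94, 4.87 and 4.94 in LRRK2-GS. Its mean was 4.93, at percentile 72.8. Only 2 Olfr probe sets lay above Fabp7 and 3 above Sox9.

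Gfap, the gene most often used to identify astrocytes, was measured above background at a middling level. Gfap (probe set 17270354, chromosome 11) read 4.10 and 3.99 in LRRK2-WT and 4.10, 4.10 and 4.28 in LRRK2-GS. Its mean of 4.11 lay at percentile 60.1 of all tested probe sets, and 15 of 1090 Olfr probe sets lay above it. LRRK2-GS array 3 was the highest and LRRK2-WT array 2 the lowest, and the other arrays held the same value. The connexin gene Gja1 (chromosome 10) read 4.23 and 4.71 in LRRK2-WT and 4.22, 4.58 and 4.12 in LRRK2-GS, a mean of 4.37 at percentile 64.4. Array 2 of each genotype was about equally high, and the spread within a genotype was wider than the gap between the genotypes. Aldoc (chromosome 11), the marker nearest to the background level from above, read 3.56 and 3.69 in LRRK2-WT and 3.71, 3.69 and 3.60 in LRRK2-GS. Its mean of 3.65 sat 0.31 above the background level, with 32 Olfr probe sets higher.

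The remaining 4 markers could not be separated from background. Aqp4 (chromosome 18), the highest of these, read 2.67 and 2.83 in LRRK2-WT and 2.68, 2.92 and 2.68 in LRRK2-GS, and 136 Olfr probe sets lay above its mean of 2.75. Gjb6 (chromosome 14) read 2.43 and 2.47 in LRRK2-WT and 2.43, 2.46 and 2.29 in LRRK2-GS, with 210 Olfr probe sets above its mean of 2.42. S100b (chromosome 10) held the value 2.07 on 4 arrays and read 2.23 on LRRK2-GS array 3. Slc1a3 (chromosome 15) read 2.09 on LRRK2-WT array 1 and 2.10 on each of the others. Their means of 2.10 lay at percentile 17.3 of tested probe sets, and 307 and 308 Olfr probe sets, respectively, were higher. For these genes the arrays give no level that could be told from probe sets of unexpressed receptors, which does not show that the transcripts were absent.

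**Figure D2:**
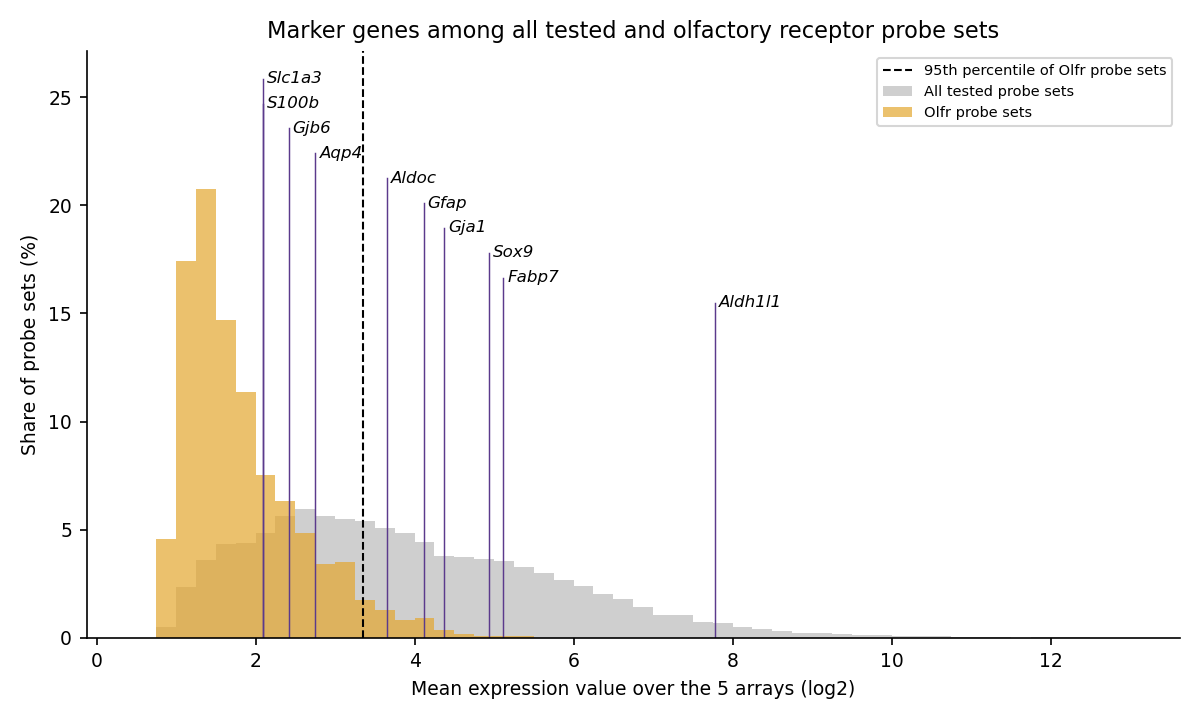
Share of probe sets (y axis, percent) by mean log2 value over the 5 arrays (x axis) for the 23396 tested probe sets in grey and the 1090 Olfr probe sets in orange, with a vertical line at the mean of each marker gene (line heights only separate the names). Slc1a3, S100b, Gjb6 and Aqp4 fall to the left of the dashed background level of 3.35, and Aldh1l1, at 7.78, is the only marker in the right tail.

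None of the 10 markers was called different between LRRK2-GS and LRRK2-WT arrays in limma's test. With both cut-offs of the study's methods (Benjamini-Hochberg adjusted p up to 0.05, fold above 1.5), 0 of the 10 were called, as were 0% of all 23396 probe sets. The study's text, by contrast, reports genes altered in LRRK2-GS cells after filtering of its microarrays. In the fit to all 5 arrays even Xist, with a difference of -5.73, had a limma adjusted p of 0.207. Far larger differences than those of the markers were thus not called, and the 0 calls do not show equal levels. At an unadjusted p under 0.05 the count was also 0 of 10, beside 2.09% of all probe sets, and the methods' t-test gave 0 as well. A difference over 1.5-fold, which 0.957% of all probe sets showed, was seen in 0 of the markers. In 0 of them did all 3 LRRK2-GS arrays lie above both LRRK2-WT arrays (3.76% of all probe sets), and in 0 did they lie below (3.74%). The groups overlapped for every one of the 10. By sign alone 6 were higher in LRRK2-GS and 4 lower, with a median difference of 0.0072 on the log2 scale, beside 0 over all tested probe sets.

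The size of difference that these arrays allow varied between the markers. Gfap averaged 4.05 ± 0.08 (SD, n = 2 LRRK2-WT arrays) and 4.16 ± 0.10 (SD, n = 3 LRRK2-GS arrays), a difference of 0.11 with a 95% confidence interval of -0.12 to 0.34 (limma adjusted p = 0.826). The difference was 0.054 when LRRK2-GS array 3 was left out, and 0.058 and 0.17 with LRRK2-WT array 1 or 2 as the single control. The interval excludes 1.5-fold, which is 0.58 on the log2 scale, in either direction. The same held for 7 of the 10 markers, namely Gfap, Sox9, Aldoc, Aqp4, Gjb6, S100b and Slc1a3. For the 4 of these under background, such an interval describes the background signal.

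Fabp7, Aldh1l1 and Gja1 varied more, and their intervals reached past 1.5-fold. Fabp7 had the largest difference of the 10, at 4.92 ± 0.25 (SD, n = 2 LRRK2-WT arrays) and 5.24 ± 0.25 (SD, n = 3 LRRK2-GS arrays), or 0.32 with an interval of -0.28 to 0.92 (limma adjusted p = 0.826). It was 0.14 when LRRK2-WT array 1 was left out, 0.50 when LRRK2-WT array 2 was, and 0.18 when LRRK2-GS array 2 was. Aldh1l1 gave a difference of -0.18 with an interval of -1.29 to 0.94 (limma adjusted p = 0.927), which became -0.50 (limma unadjusted p = 0.016, adjusted p = 0.671) when LRRK2-GS array 3 was left out, a setting with 3.92% of all probe sets at an unadjusted p under 0.05, and 0.0057 when LRRK2-GS array 2 was. The difference of Gja1 was -0.17, with an interval of -0.84 to 0.50 (limma adjusted p = 0.838), and it was 0.070 with LRRK2-WT array 1 as the single control and -0.41 with LRRK2-WT array 2. For these genes the intervals do not exclude a 1.5-fold difference.

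**Figure D3:**
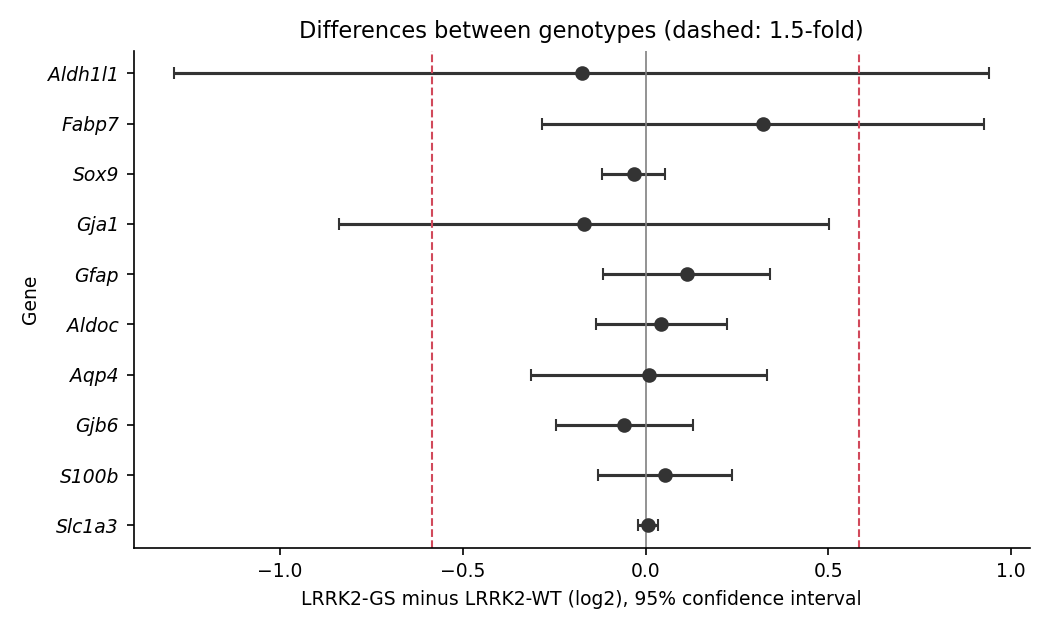
Difference in log2 value, LRRK2-GS less LRRK2-WT (x axis), for each marker gene (y axis), with limma's 95% confidence interval as the bar (2 LRRK2-WT and 3 LRRK2-GS arrays). All intervals include 0, and those of Aldh1l1 (-1.29 to 0.94), Fabp7 (-0.28 to 0.92) and Gja1 (-0.84 to 0.50) reach past the dashed 1.5-fold lines.

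The remaining differences were small and some changed sign with a single array. They were 0.053 for S100b, -0.058 for Gjb6, 0.043 for Aldoc, -0.033 for Sox9, 0.0088 for Aqp4 and 0.0056 for Slc1a3, with limma adjusted p-values of 0.826 to 1. Aldoc turned to -0.024 without LRRK2-WT array 1, and Aqp4 to -0.073 without that array and to -0.072 without LRRK2-GS array 2. That of S100b was exactly 0 without LRRK2-GS array 3. Gjb6 ranged from -0.092 to -0.0059, the latter without LRRK2-GS array 3, and Sox9 from -0.045 to -0.0091, the latter without LRRK2-GS array 2. Repeated values limit what these spreads mean. Among all tested probe sets, 77.8% had an identical value on 2 or more arrays and 53.7% on 3 or more. Of the markers, 8 did so on at least 2 arrays, 5 on at least 3 and 2 (S100b and Slc1a3) on 4, so that their SDs, and the narrow interval of Slc1a3 (-0.022 to 0.033), rest on identical numbers.

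Each marker belongs to a family whose other genes serve other tissues, and several of those relatives were bright. Among fatty acid binding proteins, the liver form Fabp1 read 10.49, at percentile 99.7, and the heart form Fabp3 read 7.33. Of 8 measured relatives of Fabp7, 4 were above background and 2 were bright. Among connexins, Gjb2 (8.13) and Gjb1 (7.02), which join hepatocytes, were the only bright ones of 14 measured, and 5 of the 14 lay above background. Gja4, a connexin of vessel walls, read 4.05 and the glial Gjc3 read 4.48.

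Of 11 aquaporin relatives of Aqp4, which itself lay under background, 9 lay above it, led by Aqp9, a water and glycerol channel of hepatocytes, at 7.22, and by Aqp1 at 6.44. Aqp11 read 5.82 and Aqp8 read 4.72, both of them channels that hepatocytes also have. Aqp8 was higher on all 3 LRRK2-GS arrays than on both LRRK2-WT arrays (1 of 11, beside 3.76% of all probe sets). Its difference was 0.53 (0.39 to 0.69 with single arrays left out). Aqp1 was lower on all 3 (1 of 11, beside 3.74%), with -0.36 (-0.51 to -0.21). Neither passed limma's test (adjusted p = 0.826 for both).

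Of 11 intermediate filament genes related to Gfap, 5 lay above background. Krt18 (8.50) and Krt8 (7.29), the keratin pair of simple epithelia and hepatocytes, were bright, Vim, the filament of mesenchymal and glial cells, read 5.80, and the progenitor filament Nes (2.52) and the neurofilament genes Nefl (1.88) and Nefm (2.13) lay under background. Of 15 relatives of S100b, 7 were above background, with S100a10 (7.32) and S100a1 (6.91) bright. Of 6 relatives of Slc1a3, only Slc1a2, the other astrocyte glutamate transporter, which also sits on hepatocytes around the central vein, was above background. It read 5.13 and 4.47 on the LRRK2-WT arrays and 3.84, 4.25 and 4.47 on the LRRK2-GS arrays, where the highest LRRK2-GS value equalled the lower LRRK2-WT value. Its difference of -0.61 was -0.28 against LRRK2-WT array 2 alone and -0.94 against array 1 alone, and it did not pass limma's test (adjusted p = 0.826). The study's supplement, by contrast, lists Slc1a2 among its genes with lower expression in LRRK2-GS. Aldh1l2, the mitochondrial relative of Aldh1l1, read 2.92, under background, and of the relatives of Sox9, Sox8 read 4.28 and the oligodendrocyte factor Sox10 read 3.26. The groups also did not overlap for 1 relative of S100b upward of 15 (beside 3.76% of all probe sets) and 1 downward (beside 3.74%). For Slc1a3 that held upward for 1 relative of 6, beside the same 3.76%. Across all these families limma called 0 genes, beside 0% of all probe sets. At an unadjusted p under 0.05 the families also had 0, beside 2.09% of all probe sets.

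A wider list of astrocyte genes also held genes above and under background. Of 43 measured genes, 26 were above background and 10 were bright. The bright ones were all among 14 genes set apart here as also expressed in liver. The lists were chosen with earlier results of these data known, so this split is a description and not a test. Among the 14 were Itih3 (10.07), a carrier of extracellular hyaluronan, the signalling protein Ndrg2 (9.26) and the secreted chaperone Clu (9.04). Cbs of cysteine synthesis (8.32), the bicarbonate transporter Slc4a4 (7.99) and glutamine synthetase Glul (7.36) were also in this set. All 14 were above background. Of the 29 others, 12 lay above background and 0 were bright, with a median level of 3.14. They included the potassium channel Kcnj10 (4.16), the receptor Fgfr3 (4.55) and Ntsr2 (4.95) on the upper side, and Mlc1 (2.56), Hepacam (2.48), Acsbg1 (2.76) and Cldn10 (2.17) under background.

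In the wider list limma again called 0 genes, with 18 higher and 23 lower in LRRK2-GS. Of all tested probe sets, 48.8% were higher and 42.7% lower. The largest differences were those of the lipid receptor S1pr1 (-0.77), Slc1a2 (-0.61), Glul (-0.54), Cbs (-0.38), the lipid phosphatase Plpp3 (-0.33) and Ndrg2 (-0.31), all in the liver-expressed part, whose median was -0.18, beside 0 for the others. Plpp3 was the only one of the 43 at an unadjusted p under 0.05, beside 2.09% of all probe sets. It read 7.57 and 7.39 in LRRK2-WT and 7.14, 7.11 and 7.21 in LRRK2-GS (limma adjusted p = 0.826). Its groups did not overlap, which in this list also held downward for Cbs and S1pr1 (3 of 43, beside 3.74% of all) and upward for Bcan (1 of 43, beside 3.76%). Glul was -0.18 against LRRK2-WT array 2 alone and -0.90 against array 1 alone. Ndrg2 was 0.015 without LRRK2-GS array 1, and S1pr1, whose 5 values another probe set holds too, ranged from -1.08 to -0.51 with single arrays left out. Markers of hepatocytes were also more often lower, 22 of 27 (beside 42.7% of all tested probe sets), with a median of -0.15. The part of hepatocyte transcripts in the differences of the wider list was not tested.

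Genes that astrocytes raise when they become reactive had no common direction. Of 30 measured, 21 lay above background, 17 were higher and 11 lower in LRRK2-GS, and the median difference was 0.030. The bright ones were the ferroxidase ceruloplasmin Cp (10.71), the protease inhibitors Serpina3n (10.70) and Serping1 (10.54), the interferon-induced GTPase Iigp1 (9.34), the metalloreductase Steap4 (8.33) and S100a10 (7.32). Cp, Serpina3n and Serping1 are also plasma proteins made by liver. limma called 0 of the 30, and 1, the glucocorticoid-induced Fkbp5 (-0.32), had an unadjusted p under 0.05, beside 2.09% of all. Amigo2 (-0.61), Steap4 (0.50), S100a10 (0.43), the small heat shock protein Hspb1 (0.38) and Tm4sf1 (-0.30) had the other large differences. Steap4 was -0.0065 when LRRK2-GS array 2 was left out and 1.05 when array 3 was, and S100a10 was 0.22 without LRRK2-GS array 1 or without LRRK2-WT array 1. With LRRK2-WT array 2 as the single control, Amigo2 was -0.32 and Hspb1 0.16, and with array 1 alone Hspb1 was 0.60. Tm4sf1, under background, was -0.078 when LRRK2-GS array 2 was left out.

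Lists of other cell types were measured in the same way. All 27 measured hepatocyte markers were above background and 26 were bright, with a median of 10.79 and Alb, serum albumin, highest at 12.63 on average. Their mean level was 10.64 to 10.69 on the LRRK2-WT arrays and 10.47 to 10.67 on the LRRK2-GS arrays, while that of the 10 astrocyte markers was 3.88 to 3.97 in both genotypes. For arrays labelled as astrocytes, 6 of 10 astrocyte markers were above background, beside 55.0% of all tested probe sets, while all 27 hepatocyte markers were. Among macrophage and microglial markers 12 of 14 were above background, with the Kupffer cell lectin Clec4f at 7.20, and the microglial genes Tmem119 at 3.74 and P2ry12 at 3.22. Endothelial markers were above background in 11 of 12 cases, including Stab2 of liver sinusoids at 6.23, and fibroblast and stellate cell markers in 12 of 13, with Dcn at 9.10. Neuronal (6 of 14), oligodendrocyte (4 of 11), neural progenitor and ependymal (2 of 8), meningeal (2 of 7) and cholangiocyte markers (1 of 7) passed the background less often in number, with medians of 2.51 to 3.26. No test was made between these lists.

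**Figure D4:**
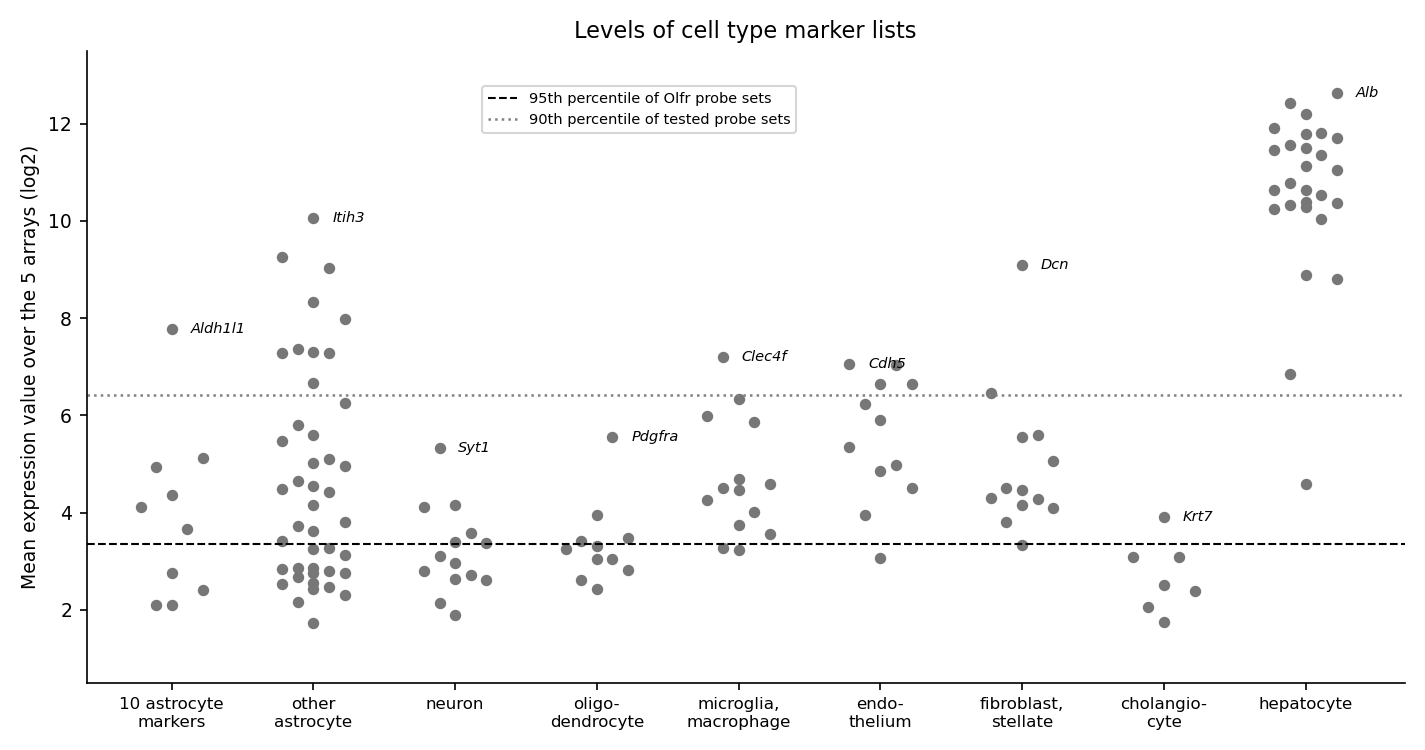
Mean log2 value over the 5 arrays (y axis) of the measured genes of 9 marker lists (x axis), 1 point per gene with the brightest gene named. The 27 hepatocyte markers centre on 10.79, and the 10 astrocyte markers have a median of 3.88 with Aldh1l1 (7.78) as the brightest.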

How the data were processed

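RNA was hybridised to 5 Mouse Gene ST arrays (Affymetrix), 1 per sample. The authors read them out in Command Console and deposited 1 log2 value per array for each of 33640 probe sets. The sources used here do not give the background correction or normalization. The values were used as deposited, with no filter. Gene symbols came from GEO's annotation of the platform and were brought up to date through gene IDs in the GRCm38.p6 table (23203 of 23396 matched). Left out were 1812 probe sets with more than 1 symbol and 8432 without any. A gene is represented by its probe set with the highest mean.

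LRRK2-GS was compared with LRRK2-WT in limma 3.58.1 (R 4.3.3) without a replicate block, with Benjamini-Hochberg adjustment over all 23396 probe sets. The steps were tested on simulated data. The methods' t-test and other settings were alternatives. The members and lists were chosen with earlier results of these data known. Genes beyond the 10 were named by level or size of difference within each list, and the others named in the text were chosen after their values were seen. Intervals rest on 5 arrays, whose number limits the precision.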

Additional observations from a re-analysis of the deposited data

How the results depend on the processing

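Under every alternative that was run, limma or the methods' t-test called 0 of the 10 markers (lowest adjusted p 0.671). Over all probe sets tested the count was also 0, except that 26 (0.111%) were called when LRRK2-WT array 1 was left out and 28 (0.12%) when LRRK2-WT array 2 was. Of the markers, 6 stayed above background except with the 99th percentile of olfactory receptors, which left 4. Gfap, at a mean of 4.11, and Aldoc lay under that level of 4.13. The median difference was -0.015 after quantile normalization and -0.033 to 0.056 with single arrays left out (0.0072 with all arrays). Of 136 single differences under alternatives, 124 kept their direction, 3 were exactly 0 and 9 turned. The t-test, another prior in limma, other choices of probe sets and averaging over a gene's probe sets could not change a difference. The fit with the replicate number as a block repeated the differences found without LRRK2-GS array 3. The count of 124 therefore overstates how stable the directions were. After quantile normalization Aqp4 turned to -0.021 and Slc1a3 to -0.019, and after cyclic loess to -0.0047 and -0.0085. With single arrays left out, Aqp4 ranged from -0.073 to 0.091, Aldoc from -0.024 to 0.11, Gja1 from -0.41 to 0.070 and Aldh1l1 from -0.50 to 0.0057. The causes were not tested. A filter on dim probe sets left 6 of the markers, so no median over all 10 was formed there. With the replicate number as a block, 0 markers were called, 2 (Aldh1l1 and Fabp7) had an unadjusted p under 0.05, beside 6% of all probe sets in that fit, and the median difference was 0.0028. LRRK2-GS array 3 has no partner of its number, so that fit takes no difference from it. Deviations of same-numbered arrays correlated at -0.13 for number 1 and 0.088 for number 2, and the labels do not say what a number stands for, so the arrays were not treated as paired. Without LRRK2-WT array 1 or 2 a lone array stands for that genotype and is assumed to vary like the others.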

Other observations

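In 3 of the 10 markers, Gja1, Aqp4 and Gjb6, array 2 of both genotypes read higher than the remaining 3 arrays, a pattern noticed in the values and seen in 3.37% of all tested probe sets. Gja1 read 4.71 and 4.58 on these arrays and at most 4.23 elsewhere. Aqp4 read 2.83 and 2.92 there and at most 2.68 elsewhere, although all its values lie under the olfactory receptor background of 3.35. Gjb6 read 2.47 and 2.46 there and at most 2.43 elsewhere, and all its values lie under that background too. Nothing in the labels says what arrays of the same number share.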
